A study of Mus musculus with 9 samples.

Results

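The distal of 3 parts of the mouse small intestine (SI3) was compared with the proximal part (SI1), which lies next to the stomach, by expression arrays of scraped mucosa. The arrays were chosen by their labelled segment and paired by diet pool: 3 of SI3 and 3 of SI1, 6 of the 9 arrays in the series. The other 3 arrays, of the middle part (SI2), entered the fit only through the estimate of spread. Each array measured RNA pooled from 6 male mice of the inbred strain C57BL/6J that were 9 weeks old at the start and ate a high-fat diet for 2 weeks. The diets were HF-PO, with palm oil, HF-OO, with olive oil, and HF-SO, with safflower oil, for which the labels give a rising P/S value. All arrays therefore share a high-fat diet, and a low-fat diet was not analysed here. One set of mice gave all 3 segments of a diet, so the tests measure how far the difference between segments varied over 3 pools, and no spread between single mice was measured.

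The proximal small intestine receives acid and pancreatic juice and takes up iron, calcium and folate, while the distal part takes up vitamin B12 and meets more bacteria. Along the whole length, crypts hold dividing stem and progenitor cells, and villi carry enterocytes, goblet cells and hormone cells over a core of fibroblasts, vessels and immune cells. Genes on lists for fat, sugar, peptides, bile acids, xenobiotics, defence and pancreatic enzymes were set aside, and the functions and gene families below are others. These lists do not hold every gene with such a role, so that single lipid and sugar genes, such as Scarb1, Slc37a2 and Lipa, are still named. Signals are the linear intensities of the arrays, given in the order HF-PO, HF-OO and HF-SO, and changes are SI3 minus SI1 on the log2(signal + 16) scale. A gene was called higher or lower where limma's moderated test, adjusted over all 22519 probe sets tested, gave an adjusted p under 0.05. Signals of different genes come from different probe sets and were not set against each other.

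Of 22519 probe sets tested, 9969 (44.3%) differed between SI3 and SI1. Of 10977 genes, 4998 (45.5%) were called, 2761 (25.2%) higher in SI3 and 2237 (20.4%) lower, with a median change of 0.07 over all tested genes. Changes of at least 2-fold were called higher for 419 genes (3.82%) and lower for 714 (6.5%). In 6367 genes (58.0%) the signals of the 2 segments did not overlap, so a lack of overlap in a named gene is common. Every share of a gene group below is set beside these shares, since with so many calls a group whose shares lie close to them is near the background. The number of calls fell when a pool was left out, which also leaves fewer arrays. Without the HF-PO pool 2087 genes (19.0%) were higher and 1782 (16.2%) lower. Without the HF-OO pool 1318 genes (12.0%) were higher and 1458 (13.3%) lower, and without the HF-SO pool 1615 (14.7%) and 1620 (14.8%). The 419 and 714 genes lay in SI2 at a median of 45.4% and 36.9% of the way from SI1 to SI3.

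The labels were checked against markers of the cells that a scraping can hold, as the plot of summed marker signals shows. The 5 enterocyte markers summed to 92442 to 110280 in the 3 SI1 arrays and 100081 to 104479 in the SI3 arrays, with Epcam higher and Alpi lower. Macrophage markers were lower in SI3 in 5 of 5, with sums of 7166 to 7804 in SI1 and 1922 to 2212 in SI3. Fibroblast markers fell in 4 of 5 (5452 to 6043 against 1657 to 2035), those of blood endothelium in 3 of 4 (1042 to 1234 against 305 to 372), those of lymphatic endothelium in 2 of 3, and T cell markers in 3 of 3 (1298 to 1572 against 644 to 681). Smooth muscle markers fell in 3 of 7 (4603 to 5017 against 3334 to 3869). Markers of follicle B cells rose in 4 of 5, from 960 to 1040 up to 1761 to 2137. Exocrine pancreas markers summed to 24090 to 30477 in SI1 and 169 to 383 in SI3, although the labels say that pancreatic tissue had been removed. Stomach markers stood apart in the HF-PO array of SI1, at 7019 against 1759 to 2072 in the other SI1 arrays, and were 766 to 829 in SI3. The fat cell marker Adipoq, an adipocyte hormone, rose from 55.2, 31.8 and 17.3 in SI1 to 311, 269.8 and 307 in SI3. Of the other lists, 1 of 4 colon markers was higher and 2 lower, 1 of 2 markers of interstitial cells of Cajal was higher, and the only tested markers of enteric neurons and of eosinophils were higher and lower, respectively. No marker of enteric glia, erythrocytes or mast cells was bright enough to be tested. In pooled tissue, fewer cells of a type and less RNA per cell cannot be told apart.

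**Figure D1:**
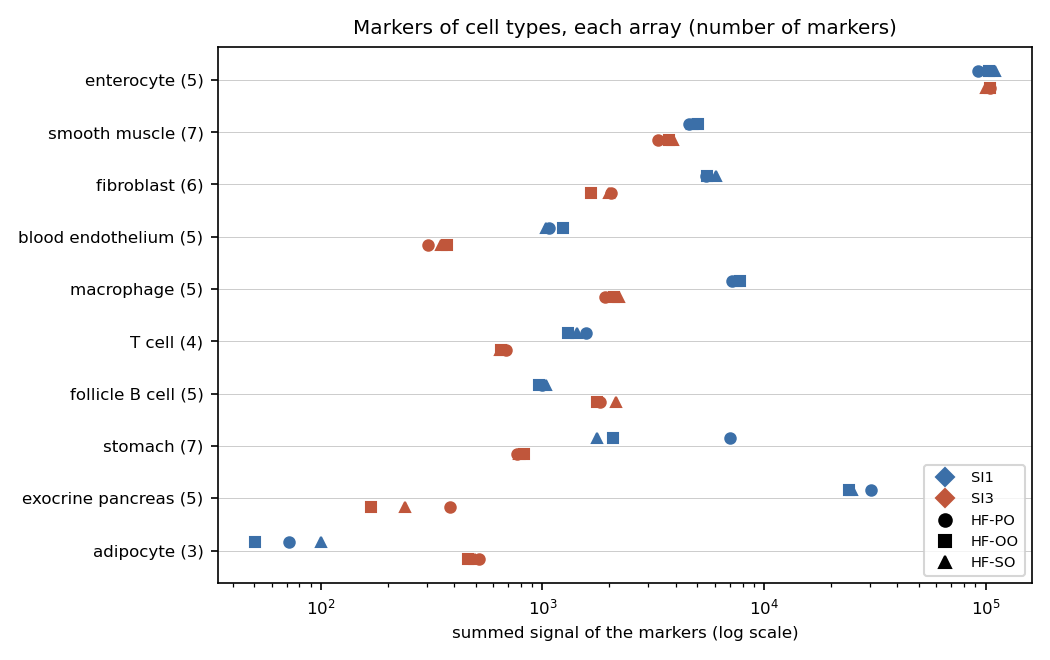
Summed signal of the markers of 10 cell types (log scale) in each SI1 array (blue) and SI3 array (red), with the diet pool by symbol and the number of markers in brackets. Macrophage, fibroblast, endothelium and T cell markers lie lower in all SI3 arrays, follicle B cell markers lie higher, and the HF-PO array of SI1 stands apart in stomach markers at 7019.

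Ribosomal protein genes were higher in the distal mucosa. These proteins form the small (Rps) and large (Rpl) subunits of the cytosolic ribosome, and their transcripts typically open with a run of pyrimidines by which the cell controls their translation. Of 45 genes tested, 32 (71.1%) were higher and 0 lower, against 25.2% and 20.4% of all genes. The changes were small: the median was 0.35, and 0 members reached 2-fold. Rps26 of the small subunit had signals of 13275, 13021 and 12573 in SI1 and 18929.8, 20977 and 18788 in SI3, a rise of 0.59 (SE 0.08, adjusted p 0.00134). Rpl6 of the large subunit had 11486, 10829 and 10746 in SI1 and 15759, 17495 and 16838 in SI3, a rise of 0.60 (SE 0.09). Rplp0, a protein of the ribosomal stalk, had 19706, 20471 and 21142 in SI1 and 27970.3, 28655 and 27792 in SI3, a rise of 0.46 (SE 0.08). In each of these genes all SI3 arrays lay above all SI1 arrays, and 58.0% of all tested genes had no overlap in either direction. Rps29 (0.13, and 0.29 and called by the median of its probe sets) and Rpl39 (-0.29) were not called, and the signal of Rps29 reached 78.5% of the highest on its array, so that compression at the bright end was not tested.

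The stretch of 25 bases on each side of the annotated start is printed for the ribosomal genes with the largest calls and for 2 respiratory chain genes, from the RefSeq table of build GRCm38.p6, with runs of at least 6 C or T that begin within 10 bases of the start in capitals. The windows are chr2:32961687-32961736 (+) for Rpl12, chr5:121204476-121204525 (+) for Rpl6, chr10:128626482-128626531 (-) for Rps26, chr17:33955641-33955690 (-) for Rps18, chr17:24724399-24724448 (-) for Ndufb10 and chr4:40279397-40279446 (-) for Ndufb6.
Rpl12: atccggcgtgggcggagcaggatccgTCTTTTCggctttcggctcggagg
Rpl6: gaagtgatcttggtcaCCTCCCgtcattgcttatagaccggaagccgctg
Rps26: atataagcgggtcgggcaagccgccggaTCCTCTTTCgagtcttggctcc
Rps18: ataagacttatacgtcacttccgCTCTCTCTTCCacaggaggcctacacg
Ndufb10: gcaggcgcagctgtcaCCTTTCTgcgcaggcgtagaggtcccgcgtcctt
Ndufb6: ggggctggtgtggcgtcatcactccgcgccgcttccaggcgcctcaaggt
Such a run stood near the start of 18 of 39 ribosomal genes with a promoter in the table (46.2%), 10 of 28 proteasome genes (35.7%), 14 of 58 respiratory chain genes (24.1%), 6 of 41 replication genes (14.6%) and 23.1% of all 27025 promoters. A run of these letters is a description of the window and no measured start of transcription.

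Other genes of RNA and protein handling are given beside the ribosome. The symbol stem Snhg holds host genes of small nucleolar RNAs, which guide modification of ribosomal RNA. Of 13 tested, 9 were higher (69.2%) and 1 was lower (7.69%), against 25.2% and 20.4% of all genes. Snhg, the exosome stem Exosc and the calpains are named because their shares higher were among the 6 highest of 170 symbol stems. The stems Bmp, Rdh and Ms4a are named likewise for shares lower. Their high shares follow from this choice. Snhg7 had 139, 131 and 152 in SI1 and 243, 213 and 299.9 in SI3, a rise of 0.77 (SE 0.10). Of 9 tested subunits of the RNA exosome, which trims and degrades RNA, 6 were higher, the largest being Exosc2 with a rise of 0.72 (SE 0.13), from 265, 253 and 239 in SI1 to 394, 462 and 421 in SI3. The proteasome, which degrades proteins, stayed near or under the background, with 5 of 34 genes higher (14.7%), 3 lower (8.82%) and a median of 0.08. Among genes of protein folding in the endoplasmic reticulum, 15 of 41 were higher (36.6%) and 5 lower (12.2%), with a median of 0.15. The disulfide isomerase Pdia6 rose by 1.02 and the goblet cell isomerase Agr2 by 1.31 (0.27 by another probe set). Ern2, a stress sensor of mucus-secreting cells, rose by 1.27, whereas the oxidase Ero1b fell by 1.03. The number of ribosomal calls fell when any pool was left out. Without HF-PO 21 genes were higher (46.7%, against 19.0% of all genes at that setting). Without HF-OO 5 were higher (11.1% against 12.0%) and without HF-SO 8 (17.8% against 14.7%), shares near the background. After quantile normalization 21 were higher (46.7% against 23.3%). The folding genes called higher numbered 7 without HF-OO (17.1% against 12.0%) and 8 with HF-SO left out (19.5% against 14.7%). The median ribosomal change was 0.29, 0.45 and 0.34 in the 3 pools, against 0.04, 0.08 and 0.06 over all genes.

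Subunits of the mitochondrial respiratory chain, the complexes that carry electrons to oxygen and make ATP, were lower in SI3. Of 69 nuclear genes tested, 46 (66.7%) were lower and 1 (1.45%) was higher, with a median of -0.40 (-0.33, -0.37 and -0.45 in the HF-PO, HF-OO and HF-SO pools). The complex I subunit Ndufb10 had 8467, 8177 and 8280.1 in SI1 and 3982, 4042 and 4324 in SI3, a change of -1.01 (SE 0.08, adjusted p 0.000121), and was the only member lower by 2-fold. Ndufa5 of the same complex had 7950.0, 7437 and 7499 in SI1 and 4069.9, 3891 and 4120.0 in SI3 and fell by 0.92 (SE 0.08). In complex II, Sdhc, which anchors succinate dehydrogenase in the membrane, fell by 0.74, although another probe set of the gene changed by 0.28 and their median was not called. Uqcr11 of complex III fell by 0.68 and Atp5g1, a ring subunit of the ATP synthase, fell by 0.64. Cycs, the electron carrier cytochrome c, had 31612, 34870.4 and 33989.7 in SI1 and 25504, 24361 and 26916 in SI3 and fell by 0.39. In Ndufb10, Ndufa5 and Cycs every SI3 array lay below every SI1 array, and 58.0% of all tested genes had no overlap in either direction. Ndufb1 was the member that rose, from 153, 147 and 184 in SI1 to 189.7, 245 and 303 in SI3. Without the HF-OO pool 26 members were lower (37.7%, against 13.3% of all genes at that setting) and without the HF-SO pool 29 (42.0% against 14.8%). Without HF-OO the adjusted p was 0.104 for Cycs and 0.172 for Ndufb1, and without HF-SO it was 0.057 and 0.0678.

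Genes of DNA replication and mitosis, which dividing crypt cells express, were higher in SI3 in 34 of 53 (64.2%) and lower in 1 (1.89%), with a median of 0.56. Ccnd1, the cyclin that starts the cell cycle, had 775, 675 and 715 in SI1 and 2025, 2307 and 2477 in SI3, a rise of 1.63 (SE 0.11, adjusted p 5.41e-05). Ccna2, the cyclin of DNA replication, had 856, 612 and 712 in SI1 and 1392, 1668 and 1805 in SI3, a rise of 1.15 (SE 0.15). Top2a, which untangles DNA, rose by 0.91 (SE 0.18), and the proliferation marker Mki67 by 0.64. Rrm2, a subunit of ribonucleotide reductase, fell by 0.51 (by 0.31 and not called by the median of its probe sets), while the other subunit, Rrm1, rose by 1.00. The pools differed: the median change of the 53 genes was 0.12 in HF-PO, 0.78 in HF-OO and 0.70 in HF-SO. Mki67 shows it gene by gene, with 1371, 1008 and 1146 in SI1 and 1569, 2108 and 1822 in SI3, the HF-PO array being the highest of SI1 and the lowest of SI3. Gins2, which helps to start DNA replication, rose by 1.39 (SE 0.37), with changes of 0.20 in HF-PO, 1.55 in HF-OO and 2.42 in HF-SO. Without HF-SO its rise was 0.88 (adjusted p 0.111), and without HF-OO its adjusted p was 0.121. With all pools 34 members were higher and without HF-PO 40 (75.5%, against 19.0% of all genes at that setting). Without HF-OO 10 were higher (18.9% against 12.0%) and without HF-SO 12 (22.6% against 14.7%). The adjusted p of Top2a was 0.0637 without HF-OO and 0.0567 without HF-SO, and that of Mki67 0.12 and 0.0915. Follicle B cell markers, whose sums are given above, rose beside these genes, and their part in the result was not tested.

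**Figure D2:**
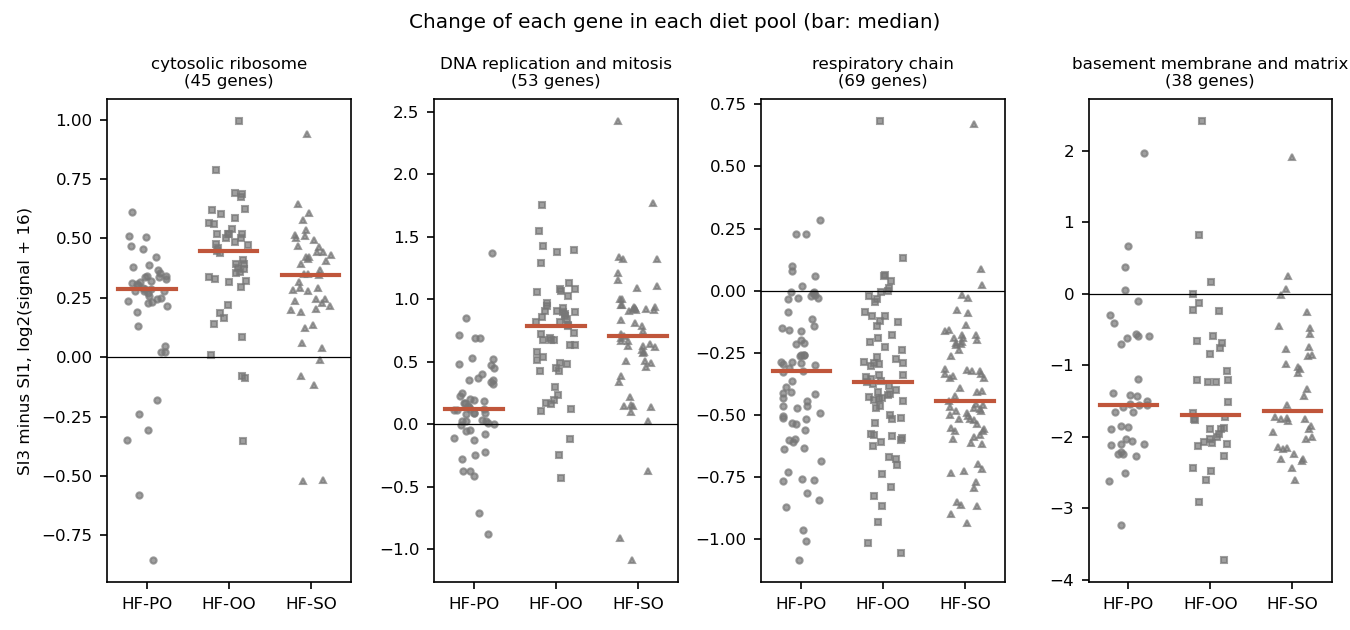
Change from SI1 to SI3 on the log2(signal + 16) scale of every tested gene of 4 functions (grey symbols) in each diet pool, with the median as a red bar. Ribosomal and replication genes lie mostly above 0 and respiratory chain and matrix genes mostly below, and the replication median is 0.12 in HF-PO against 0.78 and 0.70 in the other pools.

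Wnt signals maintain crypt stem cells, and BMP and Hedgehog signals pass between epithelium and the cells beneath it. Of 46 genes of the Wnt, Hedgehog, BMP and Notch pathways, 9 (19.6%) were higher and 15 (32.6%) lower. Axin2, a target and brake of Wnt signalling, had 583, 561 and 569.9 in SI1 and 2076, 1634 and 2110.0 in SI3, a rise of 1.73 (SE 0.11, adjusted p 5.2e-05). Lgr4, a receptor that strengthens Wnt signals, had 2129, 2196 and 2951 in SI1 and 4901, 5619 and 6005 in SI3, a rise of 1.19 (SE 0.09), and all SI3 arrays of both genes lay above all SI1 arrays. The stem cell receptor Lgr5 had 399, 371 and 321 in SI1 and 339.9, 458 and 399 in SI3, with overlapping groups and a change of 0.12 that was not called. Among secreted ligands, Wnt4 fell by 2.27, Wnt5a fell by 1.29, Bmp4 fell by 1.43 and Bmp5 fell by 1.57, whereas Bmp2 rose by 0.65. Of 8 tested genes with the symbol stem Bmp, 5 were lower (62.5%) and 1 higher (12.5%). Hhip, which binds Hedgehog ligands, had 265, 272 and 262 in SI1 and 47.7, 33.8 and 58.9 in SI3, a change of -2.19 (SE 0.13). The Hedgehog receptor Ptch1 fell by 1.11 (a change of -0.31 by another probe set). Fibroblast markers, which mark the cells beneath the epithelium, fell beside these genes in 4 of 5, with the sums given above, and their part in the result was not tested.

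Genes of the matrix under the epithelium had the lowest median change of the functions listed. Of 38 genes of basement membrane and matrix, 29 (76.3%) were lower, 25 of them by at least 2-fold, and 2 (5.26%) higher, and the median was -1.60 (-1.55, -1.70 and -1.64 in the 3 pools). Col4a1, a collagen of basement membranes, had 1704, 1646 and 1891 in SI1 and 379, 410.4 and 389 in SI3, a change of -2.11 (SE 0.09, adjusted p 1.27e-05). Col3a1, a collagen of fibres, had 2847, 2956 and 3167 in SI1 and 959, 674 and 939 in SI3, a change of -1.80 (SE 0.15). Nid1, which links laminin to collagen, fell by 2.28, the matrix glycoprotein Sparc fell by 2.28, fibronectin (Fn1) fell by 1.65 and tenascin C (Tnc) fell by 1.95. Mmp10, a protease that degrades matrix, had 1044, 1010.0 and 1166 in SI1 and 96.7, 152 and 179 in SI3, a change of -2.81 (SE 0.17). The exceptions were laminin chains that epithelial cells make: Lama3 rose by 2.10 (SE 0.11), from 671, 711 and 829 in SI1 to 2675, 3869 and 3166 in SI3, and Lamb3 by 0.52, with overlapping groups and an adjusted p of 0.158 without HF-PO and 0.187 without HF-OO. Of 22 tested genes whose symbols begin with Col and a digit, 16 were lower, 14 of them by at least 2-fold, and Col25a1 was higher. Serpinh1, the chaperone of collagen, fell by 2.57 (SE 0.16).

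Beside the matrix genes, the summed fibroblast markers fell as given above; Col1a1, Col1a2 and Col3a1 stand in both lists, and the fibroblast marker Dcn (0.17) was not called. The part of these cells in the matrix result was not tested. Of 46 growth factors and receptors, 15 (32.6%) were higher and 13 (28.3%) lower. The binding proteins Igfbp3 and Igfbp7, which hold insulin-like growth factors, fell by 2.33 (SE 0.12) and fell by 2.30 (SE 0.11). The factor Tgfb1 fell by 1.33 and Fgf7, which mesenchyme sends to epithelium, fell by 1.62. In the other direction Ereg, a ligand of the EGF receptor, had 168, 116 and 174 in SI1 and 875, 861 and 1013 in SI3, a rise of 2.48 (SE 0.15). Edn2, a peptide of the endothelin family, had 367, 283 and 445 in SI1 and 1312, 1134 and 1357 in SI3, a rise of 1.77 (SE 0.12). The guidance factor Sema3c rose by 2.13.

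Carbonic anhydrases, which convert carbon dioxide and bicarbonate into each other, went in both directions: of 10 tested, 6 were higher and 2 lower. Car2, a cytosolic form, had 4344, 5437 and 4869.5 in SI1 and 174, 218 and 245 in SI3, a change of -4.43 (SE 0.18, adjusted p 8.77e-06). Car9, a form on the cell surface, had 3392, 4368 and 4476 in SI1 and 1304, 1653 and 1284 in SI3 and fell by 1.52 (SE 0.12). Car4, anchored to the outer membrane, had 2311, 2223 and 1968 in SI1 and 5016, 4414 and 4169 in SI3 and rose by 1.06 (SE 0.11). Car13, in the cytosol, rose by 1.08 (0.26 by another probe set). Car12, on the cell surface, had 113, 148 and 143 in SI1 and 947, 884 and 916 in SI3 and rose by 2.64 (SE 0.11). The SI1 and SI3 arrays did not overlap in any of these 5 genes, nor in 58.0% of all tested genes. Car1 rose mainly outside the HF-PO pool, with 58.3, 21.0 and 47.5 in SI1 and 77.3, 1292 and 1026 in SI3, and its adjusted p of 0.0499 was at the threshold (a rise of 3.17, SE 1.09). Without HF-OO its rise was 2.18 and without HF-SO 2.74, neither of them called (adjusted p 0.224 and 0.115). Car3, abundant in fat cells, rose by 3.40, from 115, 94.5 and 61.9 in SI1 to 1229, 956 and 1081 in SI3, beside the rise of Adipoq given above, whose part was not tested.

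Among genes of sodium and potassium transport, 9 of 16 (56.2%) were higher and 1 (6.25%) lower. Without the HF-OO pool 5 were higher (31.2%, against 12.0% of all genes at that setting). Kcnj13, an inward rectifier potassium channel, had 63.5, 90.5 and 76.9 in SI1 and 981, 769 and 581 in SI3, a rise of 3.07 (SE 0.23). Kcnq1, a potassium channel of secreting epithelia, had 623, 554 and 565 in SI1 and 1393, 1446 and 1611 in SI3, a rise of 1.33 (SE 0.10), and another potassium channel, Kcnn4, rose by 0.79. Of 23 genes for chloride, bicarbonate and protons, 9 (39.1%) were higher and 6 (26.1%) lower. The sodium-proton exchanger of the brush border, Slc9a3, had 4459.9, 3994 and 4522 in SI1 and 1139.6, 742 and 1019 in SI3, a change of -2.16 (SE 0.11). Slc4a5, a sodium bicarbonate cotransporter, fell by 2.80 (SE 0.14), and the anion exchanger Slc26a6 fell by 0.55. Slc12a2, which loads cells with chloride for secretion, had 2275, 1988 and 1846 in SI1 and 3497, 4672 and 4495 in SI3 and rose by 1.04 (SE 0.15). The sulfate transporter Slc26a2 rose by 1.18, and Slc13a2, which takes up citrate and succinate, rose by 1.26, from 3571, 5473 and 3838 in SI1 to 10488, 10964 and 9113 in SI3. Of 6 water channels tested, 4 were lower (66.7%). Without HF-OO 2 were lower (33.3%, against 13.3% of all genes at that setting) and without HF-SO 2 (33.3% against 14.8%). Aqp1, a water channel of many epithelia and vessels, was the 1 that rose, from 1269.6, 997 and 978 in SI1 to 4655, 4557 and 4544 in SI3.

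**Figure D3:**
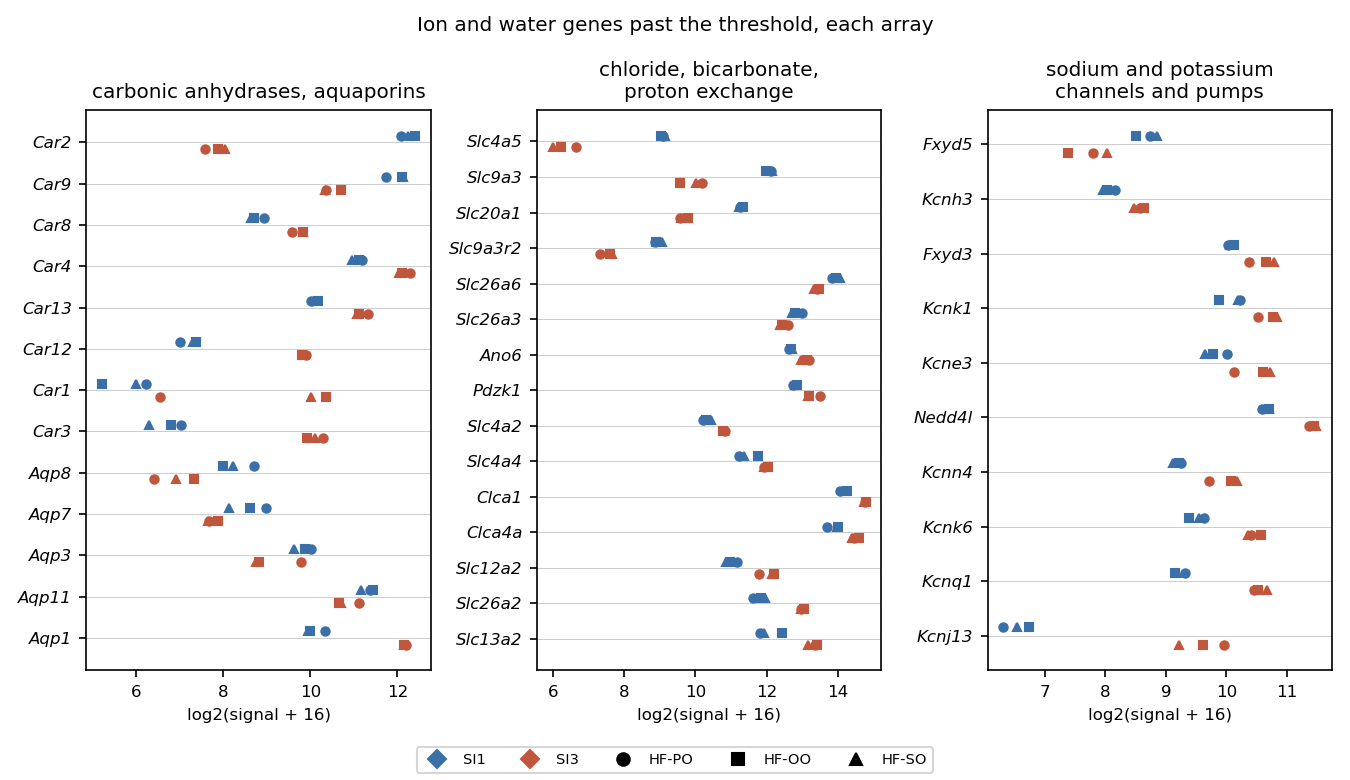
Levels on the log2(signal + 16) scale of the called carbonic anhydrases, water channels and ion transport genes in each SI1 array (blue) and SI3 array (red), with the diet pool by symbol. Car2, Slc9a3 and Slc4a5 lie lower in SI3, Car12, Kcnj13 and Aqp1 lie higher, and the HF-PO array of SI3 is near the SI1 arrays for Car1.

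Calcium and magnesium genes split evenly, with 5 of 13 higher (38.5%) and 5 lower (38.5%). Without HF-OO 3 were higher (23.1%, against 12.0% of all genes at that setting) and without HF-SO 3 (23.1% against 14.7%). S100g, the calcium carrier inside duodenal cells, fell by 7.12, and the vitamin D receptor Vdr, which drives it, fell by 0.62 (SE 0.09), from 7775, 8694 and 8887 in SI1 to 5564, 5564 and 5284 in SI3. The calcium pump Atp2b1 fell by 0.67, although another probe set of the gene changed by -0.06. On the magnesium side Trpm6, the channel that takes up magnesium, was higher (a rise of 1.58 by another probe set than its brightest), and Cnnm4, a basolateral magnesium transporter, rose by 1.25 (SE 0.08), from 3703, 3536 and 3617 in SI1 to 8179, 8794 and 8968 in SI3, though the median of its probe sets was a fall by 0.46. Cnnm2 fell by 1.18. The phosphate transporter Slc34a2 had 888, 680.1 and 1667 in SI1 and 16995, 15931 and 14479.6 in SI3, a rise of 3.95 (SE 0.24, adjusted p 4.16e-05), with no overlap.

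Of 31 genes for iron, zinc and copper, 13 (41.9%) were lower and 8 (25.8%) higher. Those higher numbered 5 without HF-OO (16.1%, against 12.0% of all genes at that setting) and 5 without HF-SO (16.1% against 14.7%). Slc40a1, the iron exporter of enterocytes, Cybrd1, which reduces iron, Slc11a2 and Epas1 were among those lower. Slc11a2, which imports iron from the lumen, had 1424, 2022 and 1653 in SI1 and 586, 705 and 619 in SI3, a change of -1.38 (SE 0.12). Epas1, a hypoxia factor that drives iron uptake, had 4625, 6034 and 5177 in SI1 and 1845, 1811 and 1705 in SI3, a change of -1.55 (SE 0.11), and Hfe, a regulator of iron sensing, fell by 1.07. The reductase Cybrd1 fell by 3.68 from 435, 2083 and 1209 in SI1 to 60.7, 74.3 and 63.2 in SI3, with SI1 arrays that differed widely among themselves. Slc25a37, which carries iron into mitochondria, is not counted among the 31 genes. It had 1101, 1193 and 1052 in SI1 and 4107, 3699 and 3892 in SI3, a rise of 1.79 (SE 0.09). For other metals, Slc30a10, a manganese exporter, had 1599, 1595 and 1739 in SI1 and 394, 326 and 286 in SI3, a change of -2.25 (SE 0.12). The zinc exporter Slc30a1 had 901, 1053 and 1059 in SI1 and 2442, 2078 and 2553 in SI3, a rise of 1.22 (SE 0.12), and the zinc importer Slc39a4 rose by 0.55.

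Vitamin genes were lower in 17 of 35 (48.6%) and higher in 8 (22.9%), and the direction differed between vitamins. Both folate transporters tested fell: Slc46a1, the proton-coupled carrier of the proximal intestine, had 11468, 13343 and 13060.3 in SI1 and 821, 835 and 716 in SI3, a change of -3.97 (SE 0.10, adjusted p 1.84e-06), and Slc19a1 had 1509.6, 1562 and 1433 in SI1 and 501, 511 and 506 in SI3, a change of -1.54. The thiamine transporter Slc19a3 had 895, 786 and 1070.3 in SI1 and 62.1, 59.1 and 27.6 in SI3, a change of -3.87 (SE 0.24), and Slc19a2, of the same vitamin, fell by 0.76. The vitamin C transporter Slc23a2 fell by 1.81. In the other direction, the riboflavin transporter Slc52a3 had 851, 1055 and 1018 in SI1 and 5281, 5925 and 6046 in SI3, a rise of 2.54 (SE 0.09, adjusted p 4.83e-06). Slc5a6, which carries biotin and pantothenate, had 429, 448 and 457 in SI1 and 1018, 979 and 1030.1 in SI3, a rise of 1.15 (SE 0.08). The vitamin B12 receptor is made of Cubn and Amn, of which Amn had 4292, 4592 and 4563 in SI1 and 10302, 11243 and 9714 in SI3, a rise of 1.21 (SE 0.09). None of these genes had overlapping groups, a trait shared with 58.0% of all tested genes.

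Enzymes and carriers of vitamin A and carotenoids were called in both directions. Rbp2, the retinol carrier of enterocytes, had 32364, 35213 and 39353 in SI1 and 22810.2, 9566 and 8022 in SI3, a change of -1.56 (SE 0.32), and its HF-PO array was the highest of SI3. Its adjusted p was 0.067 without HF-OO and 0.0601 without HF-SO. Bco1, which cleaves beta-carotene, had 394, 1224 and 941 in SI1 and 195, 734 and 413 in SI3, a change of -0.95 that was of similar size in each pool although the groups overlapped. Bco2, another carotenoid oxygenase, fell by 1.52 and the retinol esterifier Lrat fell by 0.61 (a change of -0.15 by another probe set). Isx, the factor that represses Bco1, rose by 0.71 (SE 0.09). Of 9 tested retinol dehydrogenases and relatives with the stem Rdh, 5 were lower (55.6%) and 2 higher (22.2%). Rdh7 fell by 1.09 (SE 0.11) and Rdh9 had 3316, 3035 and 3209 in SI1 and 7399, 6501 and 6579 in SI3, a rise of 1.09 (SE 0.09).

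**Figure D4:**
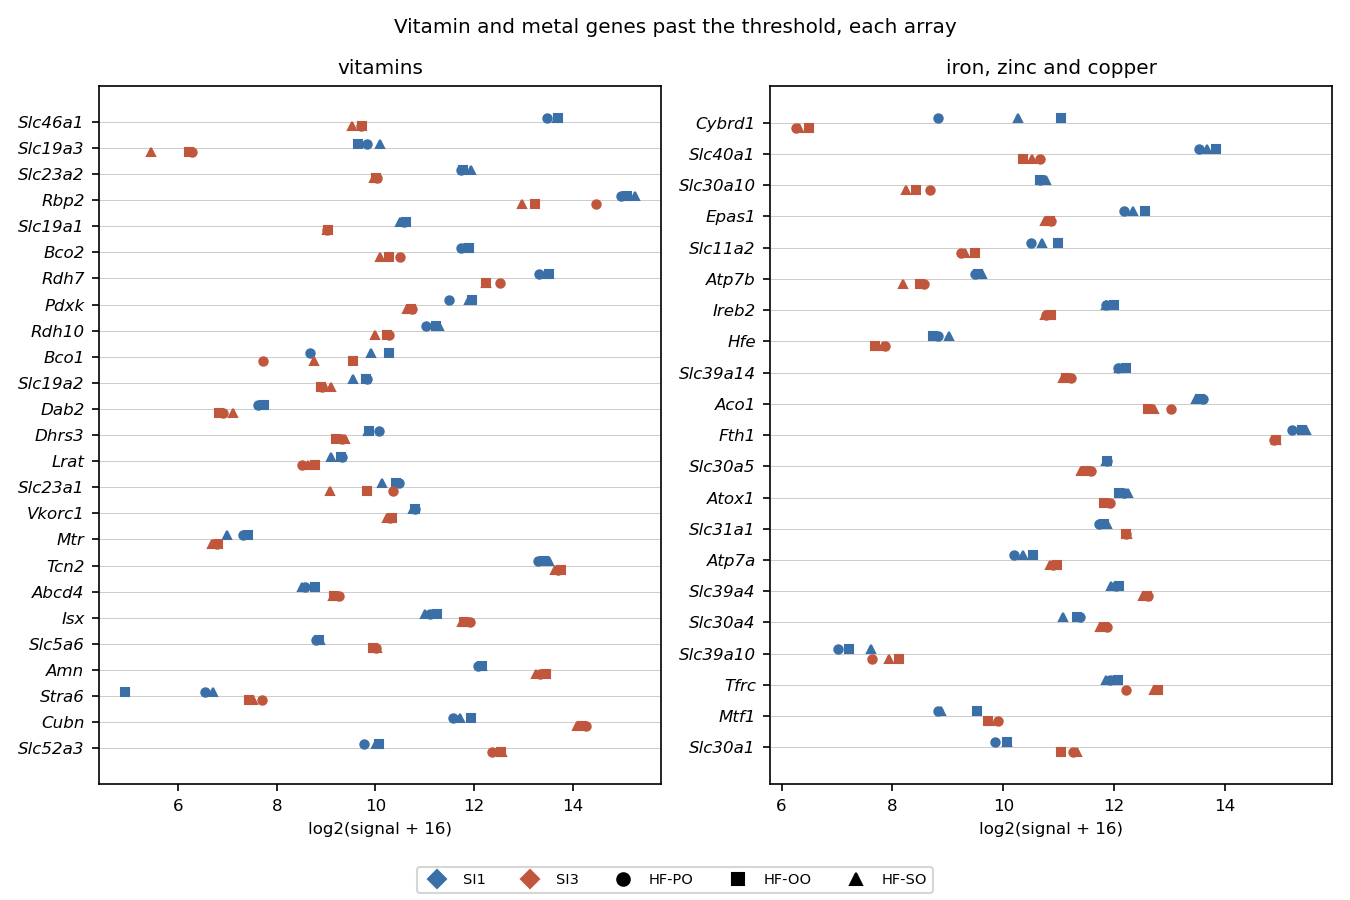
Levels on the log2(signal + 16) scale of the called genes for vitamins and for iron, zinc and copper in each SI1 array (blue) and SI3 array (red), with the diet pool by symbol and genes ordered by change. Slc46a1, Slc19a3, Cybrd1 and Slc40a1 lie at the top with lower SI3 levels, and Slc52a3, Cubn and Slc30a1 at the bottom with higher ones.

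Nucleoside and purine genes were called in both directions, with 12 of 37 (32.4%) higher and 13 (35.1%) lower. Those higher numbered 6 without HF-OO (16.2%, against 12.0% of all genes at that setting). Several enzymes that break nucleotides down were among those lower. Enpp3, an ectoenzyme that cleaves nucleotides, had 13348, 17144 and 16196 in SI1 and 2299, 1884 and 1415 in SI3, a change of -3.07 (SE 0.19). Adenosine deaminase (Ada) had 28851, 32423 and 36169 in SI1 and 17427, 10541 and 8886 in SI3, a change of -1.46 (SE 0.23), and xanthine dehydrogenase (Xdh), which makes uric acid, had 15959, 15298 and 16528 in SI1 and 7501, 5239.8 and 5544 in SI3, a change of -1.40 (SE 0.11). The SI3 array of HF-PO was the highest of SI3 in all of these enzymes. Cytidine deaminase (Cda) fell by 1.28. Of the enzymes that build purines and pyrimidines from small precursors, Atic had 458, 308 and 382 in SI1 and 1070.1, 1406 and 1246 in SI3, a rise of 1.66 (SE 0.17), and Cad rose by 0.71.

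In sulfur and one-carbon metabolism 9 of 30 genes were higher and 9 lower (30.0% each). Both synthases of the sulfate donor PAPS were called, in opposite directions. Papss2 had 21671, 26690.0 and 27192 in SI1 and 5367, 5355 and 4312 in SI3, a change of -2.33 (SE 0.14, adjusted p 3.49e-05). Papss1 had 1437, 1482 and 1348 in SI1 and 3496, 4404 and 4141 in SI3, a rise of 1.48 (SE 0.10, adjusted p 5.66e-05). Sulfite oxidase (Suox), which turns sulfite into sulfate, had 450.4, 487 and 493 in SI1 and 7858, 8819.6 and 9203 in SI3, a rise of 4.13 (SE 0.12). Tst, which detoxifies cyanide and handles sulfide, rose by 2.02 (SE 0.19), and Cdo1, which oxidises cysteine, rose by 0.88.

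Redox enzymes were lower in 15 of 32 (46.9%) and higher in 6 (18.8%). Those lower numbered 9 without HF-OO (28.1%, against 13.3% of all genes at that setting). Gpx2, the glutathione peroxidase of gut epithelium, had 2646, 2573 and 3013 in SI1 and 9481, 10615 and 10577 in SI3, a rise of 1.89 (SE 0.10), whereas the secreted form Gpx3 had 1672, 1762 and 1734 in SI1 and 469, 516 and 557 in SI3, a change of -1.72 (SE 0.12). Catalase (Cat) fell by 0.80 and Nfe2l2, the factor that drives antioxidant genes, fell by 0.92. Noxo1 and Cyba, parts of an epithelial enzyme that makes superoxide, rose by 1.39 and 1.50. Of 18 genes for polyamines and tryptophan, 5 were higher (27.8%) and 3 lower (16.7%), near the 25.2% and 20.4% of all genes. Aoc1, the diamine oxidase that degrades histamine, rose by 0.89 (SE 0.09), while Ddc, an enzyme of serotonin and dopamine synthesis, fell by 1.54 (SE 0.09) and Tph1, which makes serotonin in gut hormone cells, fell by 1.09.

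Genes of cell contacts were more often higher than lower in SI3. Of 49 genes of junction scaffolds and adhesion, 24 (49.0%) were higher and 4 (8.16%) lower, with a median of 0.28. Without HF-PO 15 were higher (30.6%, against 19.0% of all genes at that setting) and without HF-OO 12 (24.5% against 12.0%). Ceacam1, an adhesion receptor that carries many glycans, had 6047, 8102 and 7721 in SI1 and 23582, 24080.4 and 21826 in SI3, a rise of 1.68 (SE 0.11, adjusted p 5.41e-05). Cxadr, a tight junction protein, had 1957, 2029 and 1725 in SI1 and 3794, 4228 and 4062 in SI3, a rise of 1.08 (SE 0.09). Smaller rises were those of the desmosome protein Dsp (0.55), occludin (Ocln, 0.49) and the scaffold Tjp3 (0.78). The gap junction protein Gja1 had 655, 873 and 934 in SI1 and 129, 154 and 179.5 in SI3, a change of -2.29 (SE 0.10). Of 9 claudins, which set what passes between cells, 5 were higher (55.6%) and 1 lower (11.1%). Cldn2, which forms a pore for cations and water, had 1635, 1422 and 1674 in SI1 and 4506, 5793 and 5130.4 in SI3, a rise of 1.69 (SE 0.13), and Cldn15, also a cation pore, had 10643, 12557 and 11396 in SI1 and 7293, 6663 and 7067 in SI3, a change of -0.72 (SE 0.10).

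In the microvillus cytoskeleton 11 of 32 genes were higher (34.4%) and 2 lower (6.25%). Without HF-PO 7 were higher (21.9%, against 19.0% of all genes at that setting) and without HF-SO 6 (18.8% against 14.7%). Gelsolin (Gsn), which cuts actin filaments, had 1087, 1365 and 1423 in SI1 and 5006, 6951 and 6421 in SI3, a rise of 2.23 (SE 0.09), and Myo1d, a motor protein, rose by 0.65. Of 15 keratins 4 were higher (26.7%, near the 25.2% of all genes) and 0 lower. Among those higher were Krt19 of simple epithelia (0.74) and Krt7 (1.30). Tetraspanins, which organise membrane domains, were higher in 7 of 20 and lower in 7: Tspan1 had 619, 515 and 562 in SI1 and 3243, 3616 and 3884 in SI3, a rise of 2.63 (SE 0.11), Cd9 rose by 1.45, Cd81 fell by 1.04 and Tspan13 fell by 1.11. Of 8 annexins, which bind membranes in the presence of calcium, Anxa4 rose by 1.13 (SE 0.09) and Anxa1 fell by 0.87. Calpains, proteases that calcium switches on, were higher in 7 of 11 tested (63.6%) and lower in 3 (27.3%). Capn1 rose by 1.03, Capn13 by 1.03 and Capn5 by 1.05, while Capn15 fell by 0.85. In the lysosome 11 of 48 genes were higher (22.9%) and 18 lower (37.5%). Those higher numbered 7 without HF-PO (14.6%, against 19.0% of all genes at that setting) and 7 without HF-OO (14.6% against 12.0%). Those lower numbered 11 without HF-OO (22.9% against 13.3%). The sialidase Neu1 rose by 2.22 (SE 0.08) and the acid lipase Lipa fell by 1.73 (SE 0.11).

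Glycosyltransferases, which build the sugar chains of mucins and membrane proteins, were higher in 16 of 49 (32.7%) and lower in 14 (28.6%). Without HF-PO 9 were higher (18.4%, against 19.0% of all genes at that setting), and without HF-OO 9 were lower (18.4% against 13.3%). Enzymes that start or extend mucin-type chains included Galnt12, with 857, 781 and 769 in SI1 and 2009, 1932 and 1977 in SI3 and a rise of 1.28 (SE 0.09), Galnt5 with a rise of 1.38 and B3gnt6 with 1.86. Mgat4b, which branches N-linked chains, rose by 1.00 and its relative Mgat4c by 6.09. Sialyltransferases St3gal1, St3gal5 and St3gal6 fell by 1.19, fell by 1.01 and fell by 1.09; for St3gal6 the probe sets ranged from -1.35 to 0.26.

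Guanylin peptides act from the lumen on the receptor Gucy2c and raise cyclic GMP, which drives chloride and bicarbonate secretion. Of 22 genes of this pathway and of cyclic nucleotides, 6 (27.3%) were higher and 11 lower, the latter 6 without HF-SO. Guca2a had 2099.5, 2041 and 2423 in SI1 and 20009, 20668 and 18619.6 in SI3, a rise of 3.17 (SE 0.10), whereas Guca2b had 22723, 26179.9 and 26239.8 in SI1 and 20925, 21126 and 19634 in SI3, a change of -0.28 (SE 0.10, adjusted p 0.0475). The receptor Gucy2c fell by 0.25 (adjusted p 0.0466). Neither small fall was called when any pool was left out, with adjusted p of 0.0537, 0.218 and 0.231 for Guca2b and 0.112, 0.217 and 0.155 for Gucy2c without HF-PO, HF-OO and HF-SO, nor after centring each array on its median. Inside the cell, the cyclic GMP kinase Prkg2 had 4066, 3849 and 3381 in SI1 and 2225, 1798 and 1768 in SI3, a change of -0.96 (SE 0.09). Pde5a, which degrades cyclic GMP, rose by 0.97 (SE 0.11).

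Of 22 genes of hormone cells, 9 (40.9%) were called higher and 6 (27.3%) lower. Of those lower, Cck, a signal for bile and pancreatic release, fell by 2.37, the incretin Gip fell by 1.80 and ghrelin (Ghrl) fell by 1.47. Of those higher, Gcg, the precursor of the incretin GLP-1, rose by 1.17. The transcription factor Foxa1 had 424, 429 and 392 in SI1 and 1561, 1779.8 and 1829.7 in SI3, a rise of 2.01 (SE 0.09). Of 12 tested receptors for nutrients and tastes, 3 were higher and 1 lower, P2ry2, a nucleotide receptor, having 72.7, 116 and 80.2 in SI1 and 411, 528 and 518 in SI3 and a rise of 2.26 (SE 0.11). Genes of eicosanoid signalling were lower in 5 of 13 (38.5%) and higher in 2 (15.4%). Ltb4r1, a leukotriene receptor of white blood cells, fell by 1.71 and Ltc4s, a leukotriene synthase, fell by 1.24. Macrophage and T cell markers fell beside them, as given above, and their part was not tested. Among 11 tested genes of the Ms4a family, most of which mark immune cells, 7 were lower: the macrophage gene Ms4a7 fell by 1.40, while Ms4a1, the B cell antigen CD20, rose by 1.62 and Ms4a8a by 0.93.

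Clock and glucocorticoid genes were lower in 11 of 25 (44.0%) and higher in 5, the former 7 without HF-OO and 6 without HF-SO. Dbp, an output gene of the clock, had 2274, 3299.6 and 1709.5 in SI1 and 644, 777 and 480.2 in SI3, a change of -1.89 (SE 0.10). Hlf, a relative of Dbp, had 338, 542 and 291 in SI1 and 82.7, 64.6 and 63.3 in SI3, a change of -2.20 (SE 0.19). The core factor Arntl had 333, 245 and 521 in SI1 and 821, 749 and 725 in SI3, a rise of 1.09 (SE 0.19), with 0.28 by another probe set. The time of sampling is not given in the sources used here, and the segments of a pool came from the same mice. Hsd11b2, which inactivates glucocorticoids, had 187, 377 and 213 in SI1 and 885, 1162 and 1120.2 in SI3, a rise of 2.02 (SE 0.21), and the glucocorticoid target Tsc22d3 fell by 1.23.

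Transcription factors of gut regions were higher in 18 of 46 (39.1%) and lower in 14 (30.4%). Those higher numbered 9 without HF-OO (19.6%, against 12.0% of all genes at that setting) and 11 without HF-SO (23.9% against 14.7%). Osr2, a zinc finger factor, had 322, 327 and 323 in SI1 and 4153, 4125 and 3915 in SI3, a rise of 3.58 (SE 0.08, adjusted p 1.06e-06). Cdx1, an intestinal homeobox factor, had 1274, 1279 and 1143 in SI1 and 3079, 3323 and 2921 in SI3, a rise of 1.32 (SE 0.08), whereas its relative Cdx2 was not called by its brightest probe set (-0.23) but was by the median of its probe sets (-0.38). Atoh1 and Spdef, factors of the secretory lineage, rose by 1.09 and 1.18, and the epithelial factor Ehf by 1.60. The GATA factors divided, with Gata5 higher by 0.74 while Gata4 fell by 1.79 and Gata6 fell by 0.86 (a change of -0.18 by another probe set). Their cofactor Zfpm1 fell by 2.18 (SE 0.11), from 3006, 3073 and 3107 in SI1 to 784, 638 and 584 in SI3. Prdm16 had 1734, 1589 and 1436 in SI1 and 89.4, 92.0 and 67.1 in SI3, a change of -4.02 (SE 0.13), and Meis2 fell by 2.41. Of 36 Hox genes on the array, which set position along the body, 6 were bright enough to be tested, 2 were higher and 0 lower. Hoxb6 had 41.1, 32.8 and 44.1 in SI1 and 304, 255 and 279.7 in SI3, a rise of 2.42 (SE 0.11).

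The 15 largest rises and 15 largest falls outside the lists set aside hold further genes. Ddah1, which degrades inhibitors of nitric oxide synthesis, had 77.2, 128 and 103 in SI1 and 2174, 3019 and 2799 in SI3, a rise of 4.50 (SE 0.14). Gsdme, a pore-forming gasdermin, had 299, 294 and 265 in SI1 and 5586, 6594 and 6119.8 in SI3, a rise of 4.34 (SE 0.09), with 1.31 by another probe set. Serpina1b, a protease inhibitor best known from liver, had 144, 221 and 330.4 in SI1 and 3134, 3906 and 3769 in SI3, a rise of 3.93 (SE 0.17); the Serpina1 genes are near-identical copies, so its probe sets may read several of them. Rises were also found for Mptx1, a pentraxin (4.15), the kinase Map3k6 (3.81) and 1810065E05Rik (4.18). The groups did not overlap in any of these, nor in 58.0% of all tested genes. Slc5a8, Mgat4c, Tmigd1, Gsdmc2, Bex1, Fam151a, Trpm6, Suox and Slc34a2 complete the 15, with rises from 3.95 to 7.18.

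Among the falls, Ckb, the creatine kinase that buffers ATP, had 9958, 11566 and 12348 in SI1 and 886, 583 and 517 in SI3, a change of -4.09 (SE 0.19). Slc16a9, of the monocarboxylate carrier family, had 1082, 1330.4 and 1136 in SI1 and 39.1, 59.4 and 31.3 in SI3, a change of -4.36 (SE 0.15). Slc37a2, a sugar phosphate carrier, fell by 4.03, the membrane protein Paqr9 fell by 3.99 and Scarb1, the receptor for high-density lipoprotein, fell by 3.73. Gkn2, a stomach protein, had 2515, 357 and 343 in SI1 and 67.1, 20.5 and 29.8 in SI3, a change of -3.75 (SE 0.41), and the HF-PO array of SI1 stood above the others as it did for stomach markers; without that array its change was -3.11. The remaining falls were those of Akp3, S100g, Onecut2, Pdx1, Otop3, Car2, Prdm16, Slc46a1 and Slc19a3, with changes from -3.87 to -8.29. Pdx1 and Onecut2 are also made in pancreas, whose markers were high in SI1 as given above, and the part of pancreatic RNA was not tested.

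Promoters of these genes, from 250 bases before to 50 after the annotated start, were searched on both strands for AGATAA (other strand TTATCT), a core that GATA factors bind, and TTTATG (other strand CATAAA), a core of Cdx factors. Bases could belong to matches of both. AGATAA stood in 2 of 14 promoters of rising genes (14.3%) and 1 of 11 of falling genes (9.09%), against 11.4% of all 27025 promoters. TTTATG stood in 2 of 14 (14.3%) and 0 of 11, against 12.1% of all.

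**Figure D5:**
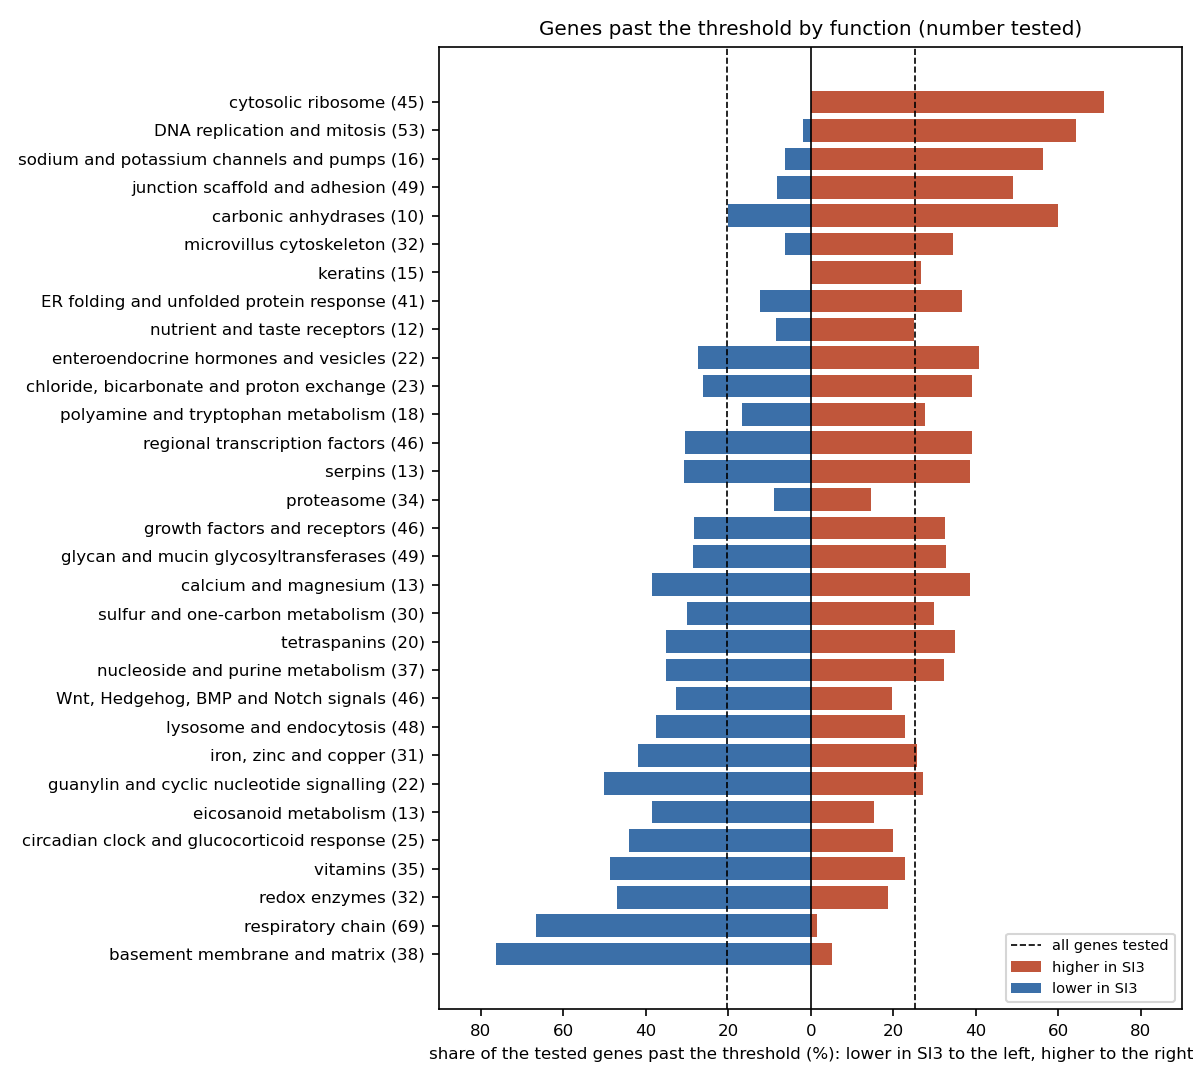
Share of the tested genes of each function with at least 10 tested that were called higher (red, right) or lower (blue, left) in SI3, with the number tested in brackets and dashed lines at 25.2% and 20.4%, the shares over all 10977 genes. Ribosome and replication genes reach furthest to the right, at 71.1% and 64.2%, and matrix and respiratory chain genes furthest to the left.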

How the data were processed

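Affymetrix arrays measured RNA of the small intestine in 3 segments and 3 diets, 1 array for each pool of 6 mice. The deposited values are linear intensities of 45101 probe sets that the authors made with MAS5, per the submitters' processing notes (no version given). Each deposited array has a 2% trimmed mean of 500.0, its median lies between 94.4 and 105.9, and its maximum between 44533.9 and 56944.2.

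After 64 control probe sets were left out, 16 was added to each signal, log2 was taken, and the 22519 probe sets with a mean over all arrays of at least 6.80 (the median of all) were tested. Limma 3.58.1 in R 4.3.3 fitted segment and diet pool to all 9 arrays, with Benjamini-Hochberg adjustment and a threshold of 0.05. The number of arrays limits the precision, and p-values measure the spread between pools only. A replicate number stands for a diet pool, whose segments come from the same mice, and the pool was therefore a block. Departures of the arrays from their segment means, with the pool not removed, were correlated between arrays of different segments. They correlated at -0.049 to 0.151 within a pool (9 pairs) and at -0.126 to 0.049 between pools (18 pairs).

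GEO's platform annotation gives 1 symbol to 34945 probe sets, several to 932 and none to 9160, and 34741 of the first were found in the RefSeq table. The brightest probe set stood for a gene. Other probe sets of a gene could change by less, and their values are given above only for some genes. The genes named are the 15 largest rises and 15 largest falls in the same direction in all pools, and members of the function and family lists. Members of the 6 symbol stems with the highest share in each direction, of 170 stems with at least 8 tested genes, are also named. A signal had to reach 50 in 1 array. The comparison, its members and the lists were chosen with earlier results of these data known. On simulated data of 22519 probe sets, 92 of 100 changes of 1 and 100 of 100 changes of 2 on the log2 scale were recovered, with 12 false calls. The simulated noise was independent between arrays and had no differences between pools. Far fewer probe sets were changed than were called in the data, so these figures give no error rate for the calls above. Promoter and start sequences come from RefSeq (GRCm38.p6), which held 25 of the 30 named genes. Tables and plots were made with Python 3.11.15, pandas 2.3.3, numpy 2.4.6 and matplotlib 3.10.9. Alternatives changed the scaling, pseudocount (1 or 64), filter, block, arrays, prior variance and gene summary, and left out each pool. A further alternative, without the HF-PO array of SI1, was chosen after its stomach markers were seen.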

Additional observations from a re-analysis of the deposited data

How the results depend on the processing

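The number of calls fell when a pool was left out, which also leaves fewer arrays to estimate the spread. Leaving out each replicate pool in turn gave 5551 to 7581 probe sets in place of 9969, 1318 to 2087 genes higher in place of 2761 and 1458 to 1782 lower in place of 2237. Members called higher then numbered 5 to 21 for the ribosome (11.1% to 46.7%), 10 to 40 for replication (18.9% to 75.5%) and 12 to 19 for junctions (24.5% to 38.8%). These stood against 12.0% to 19.0% of all genes. Members called lower numbered 26 to 33 for the respiratory chain (37.7% to 47.8%) and 27 to 29 for the matrix (71.1% to 76.3%), against 13.3% to 16.2%. With no filter 1577 genes (8.67%) were higher and 1752 (9.63%) lower. Members higher were then 13 of 48 for the ribosome (27.1%), 13 of 54 for replication (24.1%) and 15 of 54 for junctions (27.8%). Of the respiratory chain 26 of 71 (36.6%) were lower. Quantile normalization left 21 ribosomal genes higher (46.7%, against 23.3% of all genes at that setting). Testing only the upper quartile of mean signal lowered the number of genes tested. Of 27 replication genes 21 were then higher (77.8%, against 64.2% in the main fit). Of 18 matrix genes 14 were lower (77.8% against 76.3%). Of all 6634 genes tested at that setting, 2274 were higher and 1656 lower. The cause of these changes was not tested. With no replicate block 10178 probe sets were called, Bco1 (-0.95) and Lamb3 (0.52) were no longer called, and no other named gene changed its call. By the median of a gene's probe sets Cnnm4 reversed to -0.46. Without the HF-PO array of SI1 the calls were 8583 probe sets, 2408 genes higher and 1968 lower, with 30 ribosomal, 43 respiratory, 29 matrix and 38 replication genes in the directions above. Signals near the background of an array and near its maximum carry compressed changes, and pooled RNA gives no spread between mice.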
